A study of Homo sapiens with 2 samples.

Results

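The RUNX family loci comprised 20 of the 9669 PRDM1 peaks called in U266, an established human multiple myeloma line. A peak was counted when its summit, the position of highest tag density, lay in a window on chromosome 21 from 35900000 to 37500000 around RUNX1, or in or within 50 kb of RUNX2 on chromosome 6 or RUNX3 on chromosome 1. The RUNX1 window held 18 of these peaks, and RUNX2 and RUNX3 had 1 each. The loci were selected by measured values: the window on chromosome 21 was drawn around the widest peak of the list, with the widths and tag counts of the peaks known, and the other genes were added as its family. Widths, tag counts, enrichment and peak numbers at these loci are therefore descriptions, without tests. Gene bounds of 36160 to 36422 kb for RUNX1, 45296 to 45519 kb for RUNX2 and 25226 to 25292 kb for RUNX3 were given with the definition of the loci, to the nearest 1 kb in GRCh37, so distances from a gene below are good to about 1 kb.

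The samples were 1 library of U266 chromatin immunoprecipitated with PRDM1 (C14A4), a rabbit monoclonal antibody, and 1 input library of the same line, prepared with no antibody. The labels give the cell type as plasma cell lymphoma, and the growth protocol of both libraries also names the myeloma line NCI-H929. The PRDM1 library kept 7854466 tags after removal of duplicates and the input kept 8556458, or 2.91 and 3.17 tags per kb of effective genome. With no replicate, the 95% intervals below are exact Poisson intervals that cover the counting error of the PRDM1 tags only. They take the expected tags as exact, so the counting error of the input is left out. Expected tags are the caller's background rate, with local windows of 1000 and 10000 bp, over the peak width. Input tags across whole peaks were not counted.

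PRDM1, also called BLIMP-1, is the zinc finger repressor that carries B cells into the plasma cell state, and its sites share the core GAAAG with those of interferon regulatory factors. RUNX proteins bind DNA through the Runt domain as heterodimers with CBFB, on sites that read ACCACA on one strand. RUNX1 is required for definitive haematopoiesis and early B cell development, RUNX2 is the master factor of osteoblasts, and RUNX3 acts in T cell lineages and sensory neurons. Each of these genes is transcribed from a distal promoter and from a proximal promoter inside the gene.

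Promoters of the 3 genes are shown to compare their sequence. For RUNX2 and RUNX3 they lie at the gene start against which the peaks below are placed, and for RUNX1 they do not. The sequences are RefSeq entries of GRCh38.p14, from 250 bases before to 50 bases after the start, 5′ to 3′ on the strand of the gene. Capitals mark GAAAG or ACCACA on either strand (CTTTC or TGTGGT on the printed strand). The RUNX1 entry is the proximal promoter (chr21:34888650-34888949, minus strand). The entries held no distal RUNX1 promoter, so that sequence was not examined. The RUNX2 entry (chr6:45328080-45328379, plus strand) and the RUNX3 entry (chr1:24964961-24965260, minus strand) are the distal promoters at the gene start.
RUNX1: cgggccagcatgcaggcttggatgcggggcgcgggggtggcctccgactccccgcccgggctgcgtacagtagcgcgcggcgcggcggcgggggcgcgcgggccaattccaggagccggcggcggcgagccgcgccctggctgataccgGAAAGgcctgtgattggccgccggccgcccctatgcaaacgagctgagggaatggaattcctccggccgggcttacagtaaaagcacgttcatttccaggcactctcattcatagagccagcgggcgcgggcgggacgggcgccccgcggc
RUNX2: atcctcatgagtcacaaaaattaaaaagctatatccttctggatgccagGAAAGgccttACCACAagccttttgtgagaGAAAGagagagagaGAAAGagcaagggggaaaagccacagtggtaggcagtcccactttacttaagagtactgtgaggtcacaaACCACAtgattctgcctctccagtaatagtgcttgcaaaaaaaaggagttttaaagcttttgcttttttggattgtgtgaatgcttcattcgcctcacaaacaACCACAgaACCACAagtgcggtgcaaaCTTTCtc
RUNX3: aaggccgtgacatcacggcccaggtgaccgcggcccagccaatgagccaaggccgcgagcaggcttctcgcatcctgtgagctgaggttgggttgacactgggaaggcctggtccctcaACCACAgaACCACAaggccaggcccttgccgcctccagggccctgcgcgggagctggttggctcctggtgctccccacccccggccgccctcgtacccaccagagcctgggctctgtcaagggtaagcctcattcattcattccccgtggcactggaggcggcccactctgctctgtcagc

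The distal promoters of RUNX2 and RUNX3 had an unbroken run of 18 bases in common, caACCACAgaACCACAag, which holds the RUNX site as a tandem pair. It lay at bases 15 to 32 from the start in RUNX2 and at 133 to 116 bases before the start in RUNX3. Of 35116 promoter entries of the same length, 2 held this run on either strand, and these are the entries printed. The distal promoter of RUNX1 was not among the entries, so whether it holds the run was not determined. ACCACA occurred 4 times in the RUNX2 entry, a number that 0.0142% of all entries reached, 2 times in the RUNX3 entry (1.31% had 2 or more) and not in the RUNX1 entry (13.1% had at least 1). GAAAG occurred 4 times in the RUNX2 entry, which 1.89% of entries reached, and 1 time in the RUNX1 entry, where 54.7% had at least 1. It did not occur in the RUNX3 entry. The other RefSeq entries, the proximal promoters of RUNX2 and RUNX3, held neither motif. GC content was 72% in the RUNX1 entry, 42.7% in the distal RUNX2 entry and 66.3% in the distal RUNX3 entry. Entries are in another build than the peaks and no coordinate was converted, so whether the proximal promoter of RUNX1 lies in a peak was not determined.

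The 8 peaks with the most PRDM1 tags at these loci lay in the RUNX1 window, 2 downstream and 6 upstream of the gene. Of the 20 peaks, 8 passed the limits of the authors' filtered list, at least 50 tags and a false discovery rate (FDR) of 5% or less, and all 8 were in the RUNX1 window. That is 40% of the peaks at these loci, where 9.17% of the complete list passed. The caller's FDR compares the number of peaks found in the input over PRDM1 with the number found in PRDM1 over the input, among peaks of equal or better score. At an FDR of at most 5% with no tag limit, 13 of the 20 (65%) passed, where 43.5% of the complete list did. These shares follow in part from the choice of the window. Peaks at the RUNX loci held a median of 28.5 tags, from 12 to 474, where the median of the complete list was 15 tags. The 6 peaks with an FDR above 20% held 12 to 29 tags.

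**Figure D1:**
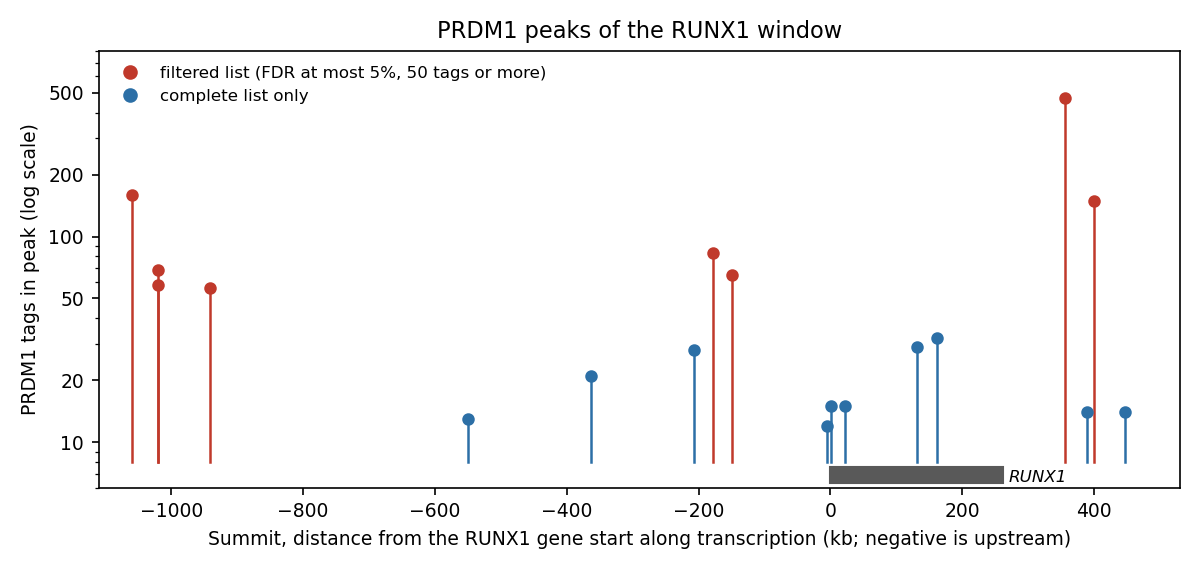
Tags in each of the 18 PRDM1 peaks of the RUNX1 window (log scale) against the distance of the summit from the RUNX1 gene start in kb, with upstream positions negative and the gene as a grey bar. The 8 peaks of the filtered list (red) lie outside the gene, 2 downstream and 6 upstream, and the 4 peaks inside it (blue) hold 15 to 32 tags.

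Downstream of RUNX1, on its 3′ side, lay the peak with the most tags and the greatest width of all 9669. This peak, chr21:36062338-36068990, was 6653 bp wide, with its summit 94 kb past the end of the gene. It held 474 PRDM1 tags, or 516 after scaling to the depth of the input, against 93.1 tags expected from the input background, a ratio of 5.54 (95% interval 5.05 to 6.06). It was 1.25 times as wide as the next widest peak of the list and 4.35 times as wide as the median filtered peak, at 1531 bp. In the whole list 2 peaks reached 5000 bp, and the other one, chr21:10793697-10799034, held 193 tags at 1.76 times the expected number.

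The summit of this peak lay near its middle, 3.36 kb from the start of the peak and 3.3 kb from its end. A central summit was common: 96.3% of the complete list had the summit nearer to the middle than to either end. How the tags were spread within the peak, beyond summit and mean height, was not measured. Summit height, recovered from the deposited fold of 45.71 as whole tags per 200 bp without scaling, was 128. The mean over the peak was 15.5 scaled tags per 200 bp, and 2.8 per 200 bp were expected from the input. The summit was thus 8.25 times the mean height, in unscaled over scaled tags. By the same measure the median filtered peak had 2.96, and 99.7% of filtered peaks had a lower value. A summit higher than 128 was recovered for 7 filtered peaks. The ratio of tags to expected tags was less extreme: of the 885 filtered peaks for which it was recovered, 13.4% had a lower one. The caller's input background at this peak was 4.42 times the genome mean, and 30 filtered peaks (3.39%) had one as high. That is a local rate applied to the full width, and the input level across the whole peak was not measured. The part of the background in the tag count beyond the scaling by expected tags was not tested.

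A second strong peak lay 43.8 kb farther downstream, at chr21:36019242-36022707. It held 149 PRDM1 tags, or 162 scaled, against 13.9 expected, a ratio of 11.7 (9.88 to 13.7). At 3466 bp it was the 12th widest peak of the list. Its summit was off centre, at 75.6% of the width. The 149-tag peak thus had fewer tags than the 474-tag peak and a higher ratio, and its background, 1.26 times the genome mean, was lower. The remaining downstream peaks were weak, with 14 tags each and FDRs of 10.14% at chr21:36032086-36032817 and 40.76% at chr21:35974910-35975732. The 4 downstream peaks spanned 94.1 kb and held 49.8% of the tags of the window's peaks.

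Inside RUNX1 the 4 peaks held 32, 29, 15 and 15 tags, in order of position from the 3′ side, or 6.97% of the tags of the window's peaks. Their median of 22 tags was above that of the complete list, 15, and 2 of the 4 had an FDR of at most 5%, where 43.5% of the list did. None was in the filtered list, and with 9.17% of the list there, 0 of 4 peaks is near that share. The strongest, chr21:36260206-36261158, had its summit 161 kb inside the gene from its start, with 32 PRDM1 tags, or 34 scaled, against 6 expected, a ratio of 5.67 (3.88 to 8) at an FDR of 0.1%. Next to it chr21:36290879-36291956 held 29 tags at 2.61 times the expected number (1.75 to 3.75) and an FDR of 25.19%. Its background was 3.47 times the genome mean, so 29 tags there stood less clear of the input than 15 tags did at chr21:36399156-36399613, which had a ratio of 6.99 (3.91 to 11.5) and an FDR of 2.16%.

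The start of RUNX1 carried a pair of weak peaks. The peak at chr21:36420972-36421754, with its summit about 1 kb inside the given gene start, held 15 tags at 3.46 times the expected number (1.94 to 5.71). The peak at chr21:36426151-36426749, about 5 kb upstream, held 12 tags at 4.34 times (2.24 to 7.58). Their FDRs were 47.26% and 37.97%, so neither was separated from the number of peaks that the input gave over PRDM1. In the complete list 16.4% of peaks of 12 to 14 tags and 58.9% of those of 15 to 24 tags passed an FDR of 5%.

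Upstream of RUNX1 the peaks fell into a nearer and a farther set, a division made after their positions were seen. In the nearer set, chr21:36598766-36600560 held 83 PRDM1 tags, or 90 scaled, against 9.87 expected, a ratio of 9.12 (7.26 to 11.3), with its summit 178 kb upstream of the gene. Its neighbour chr21:36570504-36572756, 149 kb upstream, held 65 tags, or 70 scaled, against 14.4 expected, a ratio of 4.85 (3.75 to 6.19). It was the wider of the pair, at 2253 bp, and the lower at its summit, with 13 unscaled tags per 200 bp against 34. A weaker one, chr21:36628652-36629357, held 28 tags at a ratio of 3.86 and an FDR of 1.82%. Beyond it, peaks of 21 and 13 tags lay 363 and 549 kb upstream, with FDRs of 27.86% and 21.78%, and were followed by 391 kb without a peak.

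The farther set held 4 peaks within 125 kb, about 1 Mb upstream of RUNX1, and all 4 were in the filtered list. The strongest, chr21:37485719-37487572, held 159 PRDM1 tags, or 173 scaled, against 13 expected. Its ratio of 13.3 (11.3 to 15.5) was the highest of the 20 peaks. Its interval lay above that of the 474-tag peak, but neither interval includes the counting error of the input. The peak chr21:37437621-37438889 held 69 tags at a ratio of 9.38 (7.3 to 11.9), and chr21:37442136-37443431, 3.25 kb from it, held 58 at 4.05 (3.08 to 5.24). Tag counts of this close pair were alike, but the background was 1.99 times the genome mean at the first and 3.79 times at the second. The last, chr21:37362119-37363423, held 56 tags at a ratio of 5.25 (3.97 to 6.82).

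In RefSeq's gene order the coding genes after RUNX1 on its upstream side are SETD4, a methyltransferase gene, the carbonyl reductase genes CBR1 and CBR3, and DOP1B. On its downstream side they are CLIC6, of the chloride intracellular channel family, and RCAN1, a regulator of calcineurin. Peaks were not assigned to these genes, since no annotation of the build of the peaks was used here. Lying in the window does not make a peak a RUNX1 peak.

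RUNX2 and RUNX3 had 1 peak each, and neither had a peak inside the gene. At RUNX2, chr6:45290075-45291111 lay about 5 kb upstream of the gene start and held 23 PRDM1 tags, or 25 scaled, against 5.19 expected, a ratio of 4.82 (3.06 to 7.23) at an FDR of 1.29%. At RUNX3, chr1:25184523-25185659 lay 41 kb past the 3′ end of the gene and held 28 tags, or 30 scaled, against 4.55 expected, a ratio of 6.6 (4.38 to 9.53) at an FDR of 0.1%. Both passed the FDR limit and missed the limit of 50 tags. Their intervals overlapped each other and that of the 474-tag peak, so by tags over expected these 3 peaks were not separated, although the tag counts differed.

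The neighbourhoods of the 3 genes were compared with the same flanks. With 50 kb on each side RUNX1 had 5 peaks over 362 kb, RUNX2 had 1 over 323 kb and RUNX3 had 1 over 166 kb. At the mean density of the complete list these spans would hold 1.3, 1.16 and 0.594 peaks. None of these 7 peaks was in the filtered list, where 9.17% of the complete list was. At RUNX1, 2 of the 5 had an FDR of at most 5%, where 43.5% of the list did. Both counts are near those shares. With 100 kb on each side RUNX1 gained the 474-tag peak and the others gained none. With 20 kb the peak of RUNX3 dropped out.

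**Figure D2:**
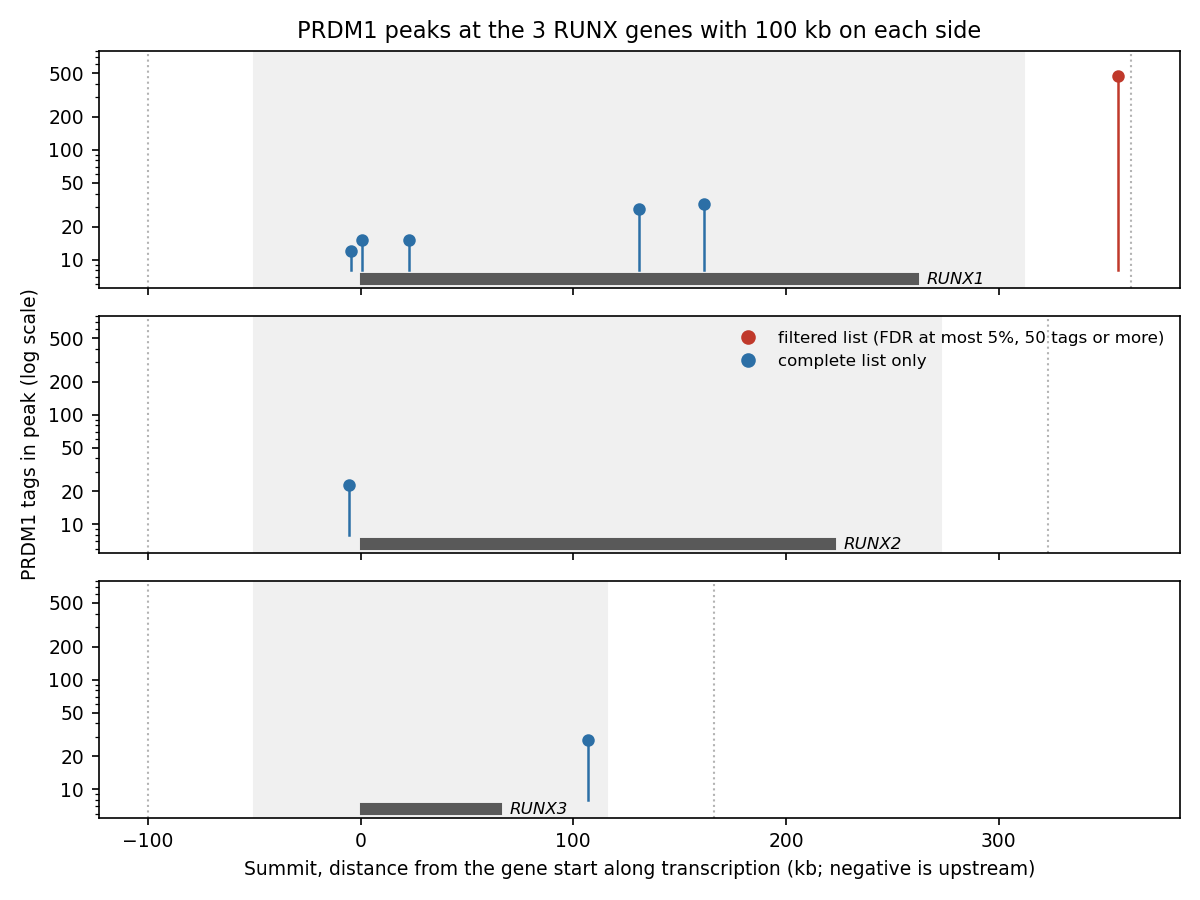
PRDM1 tags per peak (log scale) at RUNX1, RUNX2 and RUNX3 against the distance of the summit from the gene start in kb, each gene as a dark bar, with 50 kb on each side shaded and 100 kb marked by dotted lines. RUNX1 has 4 peaks inside the gene, while RUNX2 and RUNX3 have none inside.

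Each RUNX gene has a CLIC gene as the next coding gene on its 3′ side in RefSeq's order, CLIC6 after RUNX1, CLIC5 after RUNX2 and CLIC4 after RUNX3. On that side the nearest peak was the 474-tag peak at RUNX1, 94 kb past the gene end, and the 28-tag peak at RUNX3, 41 kb past it. At RUNX2 it was chr6:45649370-45650148, outside the locus as defined here, with its summit 131 kb past the gene end and 19 tags at 7.55 times the expected number. The same side of the 3 genes thus held 474, 28 and 19 tags in its nearest peak.

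The peaks next outside the loci were weak. Below the RUNX1 window the nearest was chr21:35755962-35756709 with 16 tags, 144 kb outside it, and above the window chr21:37632573-37633547 with 31 tags, 133 kb outside it. At RUNX2 they lay 577 and 80.6 kb outside the 50-kb flanks, with 12 and 19 tags, and at RUNX3 122 and 225 kb outside, with 11 and 17 tags. None was in the filtered list, so small outward shifts of these limits bring no strong peak in. An inward shift can lose one: the 159-tag peak has its summit at 37486481, close to the upper window limit of 37500000.

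The RUNX1 window was rich in peaks relative to the rest of its chromosome. It held 18 peaks in 1.6 Mb, or 11.2 per Mb, against 3.37 per Mb on the rest of chromosome 21 and 3.58 per Mb of the effective genome that the caller assumed. For filtered peaks the densities were 5 per Mb in the window, 0.494 on the rest of the chromosome and 0.329 in the genome. Those for the rest of the chromosome use its whole length, unlike the effective length used for the genome. Over the length from its first to its last peak they were 4.3 per Mb for all peaks and 0.63 for filtered peaks. The window covers 3.32% of the length of chromosome 21 and held 25.8% of its filtered peaks and 21.9% of the tags in its peaks. Cut into tiles of 1.6 Mb from the start of each chromosome, the genome gave 1634 tiles with a peak. Of these, 13 held 18 peaks or more, and 1, on chromosome 17, held 8 filtered peaks. The tiles were fixed in place and the window was not, which favours the window. The 2 fixed tiles that overlap the window held 5 filtered peaks each, a number that 17 tiles reached, and 16 and 11 peaks in all. Gaps between neighbouring peaks of the window had a median of 42.3 kb, from 3.25 to 391 kb, against a median of 99.6 kb over chromosome 21.

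Relative to the input, the peaks at the RUNX loci were close to the list at large. Their median ratio of tags to expected tags was 4.99, from 2.61 to 13.3, against 5.54 in the complete list and 4.97 on the rest of chromosome 21. The interval of the ratio lay wholly above the median of the complete list for 4 of the 20 peaks and wholly below it for 3, where 13.8% and 5.93% of the complete list did so. Intervals narrow as tags rise, and the 20 peaks held a median of 28.5 tags against 15 in the list. These shares therefore depend on tag number as well as on the ratio. The 8 filtered peaks had a median ratio of 7.33, against 10.4 over the filtered list, and 6 of the 8 lay below that median. The 10 unfiltered peaks of the RUNX1 window had a median of 4.1, against 5.45 over the unfiltered peaks of the list. Input background at the 20 peaks was 1.92 times the genome mean in the median, against 1.26 in the complete list and 1.58 on the rest of chromosome 21. It ran from 1.26 to 4.42 times. At the digits given, it was thus equal to or above the median of the complete list at each of the 20. Its part in the lower ratios was not tested.

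**Figure D3:**
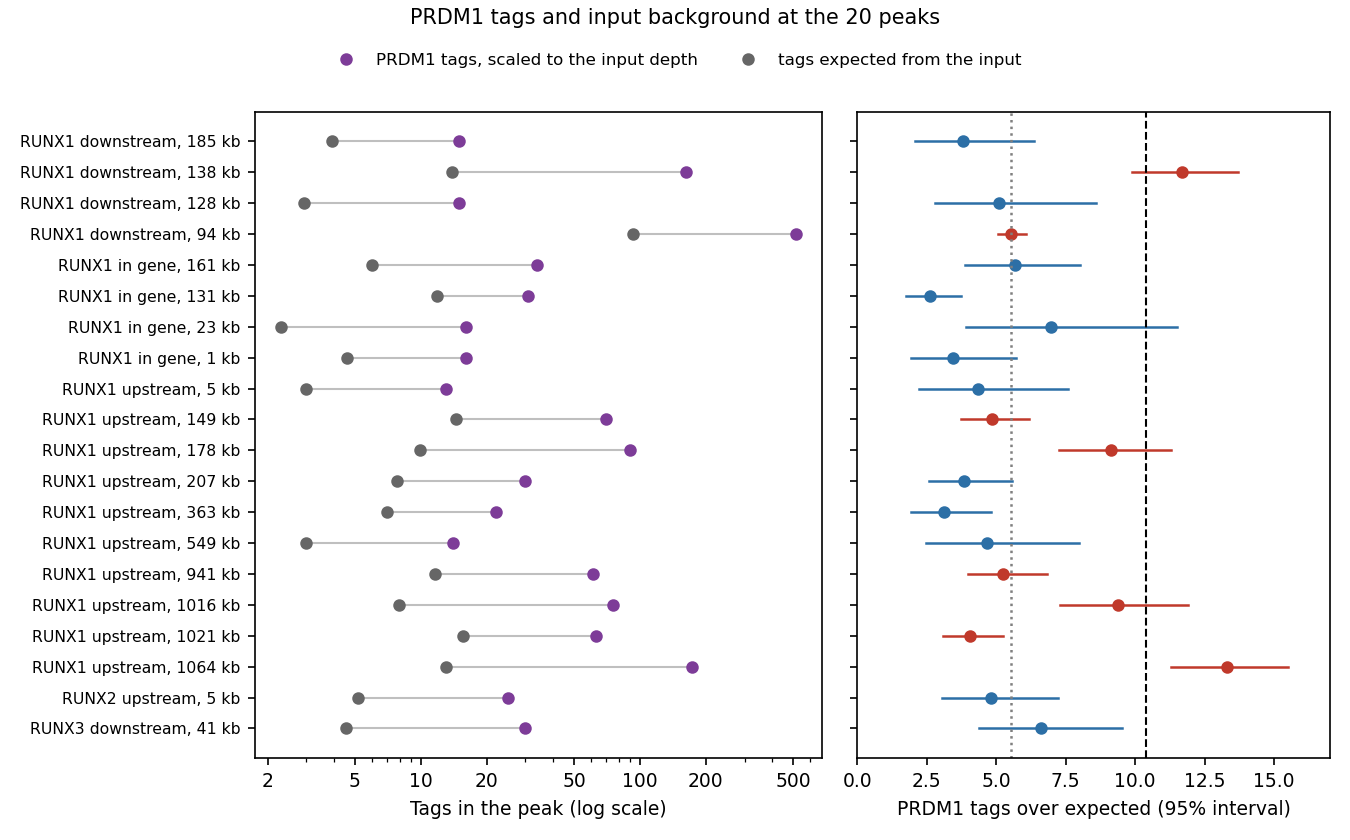
Left, PRDM1 tags scaled to the input depth (purple) and tags expected from the input (grey) at each of the 20 peaks, on a log scale, and right, their ratio with its 95% Poisson interval, for filtered peaks (red) and others (blue). Row names give the distance in kb from the nearer gene end, or from the gene start for peaks inside; the dotted line is the median ratio of the complete list, 5.54, and the dashed line that of the filtered list, 10.4.

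Width and tags of the 20 peaks ran together, as in the list at large. The filtered peaks of the RUNX1 window were 1269 to 6653 bp wide, with a median of 1824.5 bp, and the 10 others of the window 458 to 1078 bp, with a median of 757.5 bp. The 474-tag peak was wide even for its tags. The 3 peaks next to it in tags, each with at least 400, were 2395, 2196 and 4408 bp wide. Of these, the 2395-bp peak had 1.66 times the expected tags, at a background 39.4 times the genome mean. No ratio was recovered for the 2196-bp peak, and that of the 4408-bp peak was 9.87. The tag density of the 474-tag peak, 71.2 per kb, was above that of 83% of filtered peaks. The 159-tag peak was denser, at 85.8 tags per kb over 1854 bp, and the 149-tag peak less dense, at 43 per kb.

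**Figure D4:**
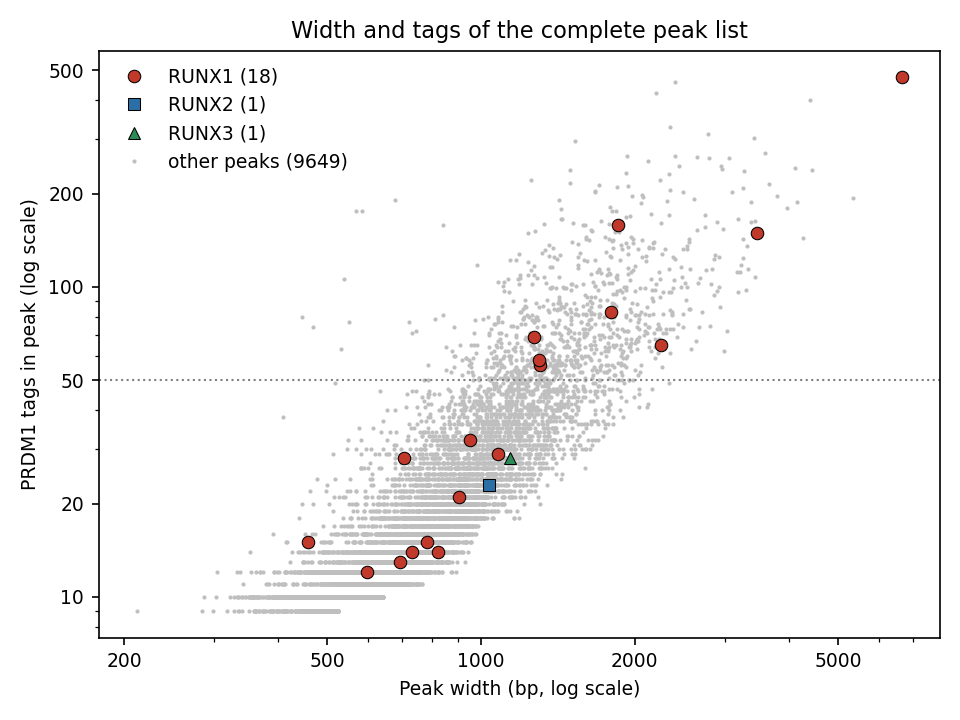
Tags against width for all 9669 peaks, both axes on a log scale, with the 18 peaks of the RUNX1 window (red circles), the RUNX2 peak (blue square) and the RUNX3 peak (green triangle) over the other 9649 peaks (grey). The dotted line marks 50 tags; the 474-tag peak of the RUNX1 window stands at the upper right, at 6653 bp.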

How the data were processed

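PRDM1 binding was measured by ChIP-seq in 1 immunoprecipitated and 1 input library. The submitters' processing notes list MACS 1.4, Bowtie 0.12.7 and CASAVA 1.8.2. Peaks were called with MACS 1.4.1 on merged alignments at a p cutoff of 1e-05, per the file headers. No source used here gives the genome build. Of 1759 peaks on chromosomes 1, 6 and 21, 0 passed an end of GRCh37, 10 passed one of GRCh38 and 14 one of NCBI36 (lengths from general knowledge), so coordinates are read as GRCh37.

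The deposited tag count of each peak is raw. The deposited score is −10 times log10 of a Poisson p, the fold is the ratio of summit height to background, and the FDR is a percent, all by the authors' caller. Expected tags were solved (scipy 1.17.1) from score and tag count, with tags multiplied by 1.09, the input to PRDM1 ratio, and rounded down. Multiplied by the deposited fold, this gave whole summit heights within 0.06 tags for 98.7% of 9667 peaks and for all 20 described here. On simulated peaks, 100% of 473 were recovered within 1%. The scores were simulated with the formula that was solved, so this checks the solving only.

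The loci, gene lists and measures were chosen with earlier results of these data known. All peaks of each locus were eligible to be named. RUNX partner genes (CBFB and others) were not placed, since no annotation of this build was used. No test was made across samples. Alternatives changed the list, thresholds, assignment, flanks, scaling and density rules.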

Additional observations from a re-analysis of the deposited data

How the results depend on the processing

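The number of peaks at the loci, 20, stayed at 20 with an overlap of 1 bp in place of the summit. With flanks of 100 kb at RUNX2 and RUNX3 it was also 20, and with flanks of 20 kb it was 19. It was 13 at an FDR of at most 5%, 10 at 1% and 8 in the filtered list, by construction of stricter limits. The limits of the RUNX1 window were not varied, so its 18 peaks were fixed under every choice of flank. The share in the filtered list, 40%, was 55% with a minimum of 25 tags and 15% with 100. Tags over expected had a median of 4.99, which became 4.97 when scaled tags were rounded to the nearest whole number and 5.36 when unscaled, and the deposited fold at the summit, another measure, had a median of 11.6. For the 474-tag peak these values were 5.54, 5.54, 6.09 and 45.7. The density of the window, 11.2 peaks per Mb, was 9.38 with peaks within 10 kb counted once, 11.2 within 2 kb and 5 for filtered peaks. Its ratio to the rest of chromosome 21, 3.33, was 2.62 over the length from the first to the last peak of the chromosome. With peaks within 2 and 10 kb counted once it was 3.49 and 3.05. For filtered peaks it was 10.1 over the whole length and 7.94 from the first to the last peak. No paired analysis was possible because a single library stood on each side. Of the peaks at the loci, 4 held 12 to 14 tags, 4 held 15 to 24 and 4 held 25 to 49, and of these 0, 2 and 3 had an FDR of at most 5%, where 16.4%, 58.9% and 93.1% of the list did. Whether deeper libraries would change these calls was not tested.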
